A study of Mus musculus with 8 samples.

Results

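The mouse aldo-keto reductase 1C family comprised 9 genes on the Agilent whole mouse genome array, namely Akr1cl, Akr1c6, Akr1c12, Akr1c13, Akr1c14, Akr1c18, Akr1c19, Akr1c20 and Akr1c21. They were chosen by gene name, with every probe of each gene kept, and the family itself was selected with earlier results of the control and Gen comparison known. The 9 genes were read by 13 probes, of 27670 gene names and 41174 probes in all. All 9 had at least 1 probe. Differences between the groups are therefore given for the family as a description, with intervals and without p-values.

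Aldo-keto reductases of this family use NADPH to reduce ketone groups on steroids, prostaglandins and other carbonyl compounds, or run the reverse reaction. In reproductive tissue they set how much active progesterone, androgen or estrogen reaches a receptor, because the reduced steroid often binds it less well, or, for precursors of testosterone and estradiol, better. Akr1c18 is the hydroxysteroid dehydrogenase that inactivates progesterone and is known from the corpus luteum, where it rises as the gland regresses. Akr1c14 reduces the A ring of steroids, Akr1c6 acts on androgens and estrogens at the D ring, and Akr1c21 makes the alpha epimer of the D ring alcohol.

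RNA came from oviducts of CD-1 female mice on GD2, 48 hr after human chorionic gonadotropin, with the embryos taken out. Control pups had received corn oil by subcutaneous injection on PND1 to PND5, and Gen-treated pups had received genistein, a soy phytoestrogen, at 50 mg/kg/day in the same vehicle over the same days. All females, controls included, were superovulated and mated at 6 to 8 weeks of age, and 4 independent replicates per group were labeled with 1 dye (Cy3) and read on 1 array each. The whole oviduct was used, so epithelium, muscle, stroma and anything adhering to the tube contributed RNA.

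Control samples were hybridized on 1 slide and Gen samples on another, and the effects of slide and of treatment cannot be told apart. Signals are linear intensities scaled between arrays at the 75th percentile, and log2 differences are Gen minus control. The lowest scaled signal called well above background ranged from 28.5 to 65.9 on the control arrays and from 14.5 to 20.9 on the Gen arrays, and 25391 to 31486 probes per array were called so. The oviduct marker Ovgp1, the oviduct-specific glycoprotein, and the other 4 markers of oviduct epithelium (Pax8, Foxj1, Krt8 and Epcam) were well above background on all 8 arrays, and 0 of these 5 passed the limma test at an adjusted p under 0.05 (1, Krt8, at an unadjusted p under 0.05).

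The probe sequences show what was measured. The 60-base probes below lie in stretches that can be read as protein without a stop codon, and they are shown because the main contrasts of the family rest on them. Probes for different genes can differ in how strongly they bind, so differences were taken across arrays for the same probe. Signals of different probes were compared to choose the brightest probe of a gene. The summed signals of lists add different probes, so bright probes weigh most in them.
Akr1cl: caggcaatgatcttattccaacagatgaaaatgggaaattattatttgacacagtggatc
Akr1c18: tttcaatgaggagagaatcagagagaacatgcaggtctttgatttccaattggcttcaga
Akr1c12: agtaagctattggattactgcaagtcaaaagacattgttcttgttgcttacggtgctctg
Akr1c19: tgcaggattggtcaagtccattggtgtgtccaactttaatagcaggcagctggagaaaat
The probes for Akr1c13 and Akr1c21 are alike over 36 bases when set side by side without gaps. In the lines for this pair the capitals mark the bases that differ within that stretch, where 23 of 36 bases matched (63.9%).
Akr1c13: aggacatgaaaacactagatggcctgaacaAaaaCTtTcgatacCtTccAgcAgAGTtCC
Akr1c21: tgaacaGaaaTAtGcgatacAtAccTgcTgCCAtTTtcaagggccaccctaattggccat
Positions given for probes come from the design of the array and are on mm7. The probe for Akr1c13 carried the accessions of both Akr1c13 and Akr1c12 in the design, so its signal may hold both transcripts and is uncertain as a measure of either alone.

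The family fell into 3 patterns. Akr1cl was far higher in the Gen-treated mice, with log2 differences of 3.66 and 3.96 on the 2 probes that every array read well above background and a lower bound on the third. Akr1c12, Akr1c13, Akr1c14, Akr1c18 and Akr1c19 were well above background on all 8 arrays with every probe, and their 6 probes had log2 differences between -0.39 and 0.54 with intervals that included 0. Akr1c6, Akr1c20 and Akr1c21 were at or near background and had no measurable fold.

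Of the 13 probes, 5 passed an adjusted p under 0.05 in the limma fit, whereas 16.2% of all 41173 probes tested did. Of these, 4 were higher in Gen-treated mice (2.17% of all probes) and 1 was lower (14.0% of all probes). Among the 8 family probes well above background on all 8 arrays, 2 passed, both of Akr1cl, and the share over all such probes was 4.37%. All 4 Gen arrays lay above all 4 control arrays for 5 family probes, compared with 4.51% of all probes. The family was selected with this contrast in view, so nothing is read from these counts. The count of 5 fell to 0 when control 1, Gen 1, Gen 2 or Gen 3 was left out and was 3 to 6 when another array was left out. Without those 4 arrays in turn, the brightest Akr1cl probe had log2 differences of 4.29, 3.63, 3.55 and 4.25.

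**Figure D1:**
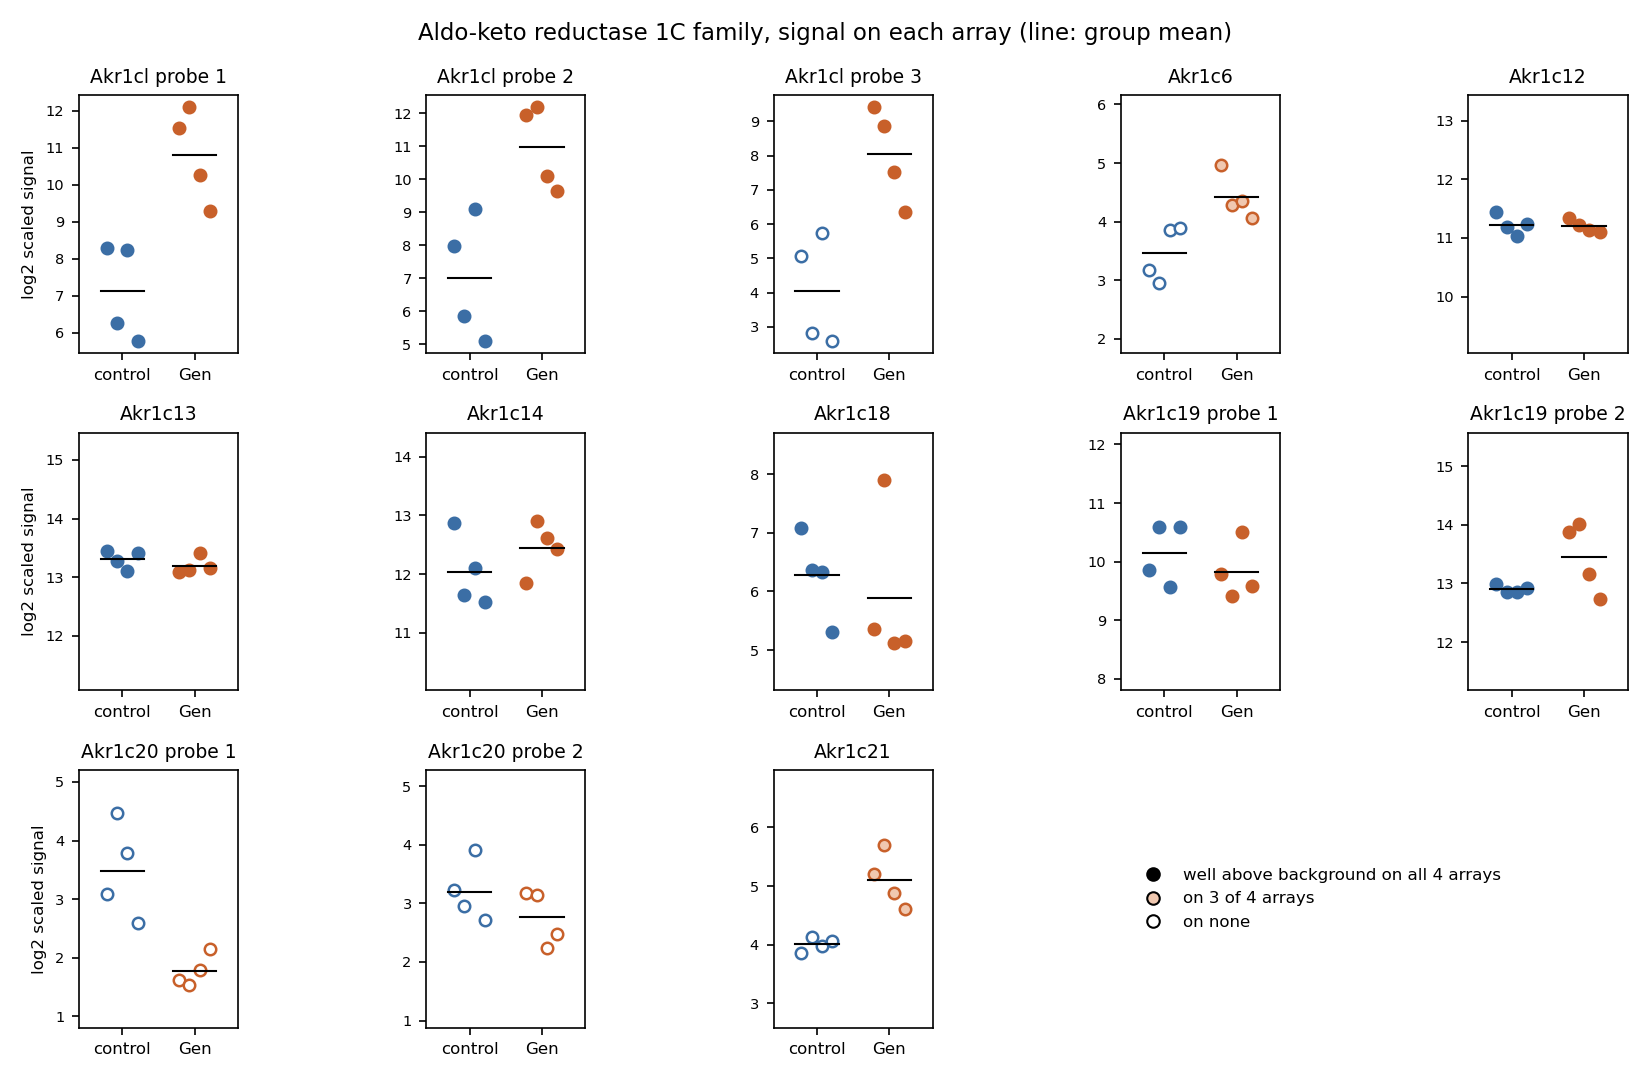
Scaled log2 signal (y axis, its range set for each panel) of the 13 family probes on the 4 control arrays and the 4 Gen arrays, with 1 point per array in the order of the replicate numbers and a line at the group mean. Filled points mark groups in which every array was well above background, tinted points 3 of 4 arrays and open points none. The groups are apart for the 3 Akr1cl probes, and they overlap for Akr1c12, Akr1c13, Akr1c14, Akr1c18 and both Akr1c19 probes.

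Akr1cl encodes a protein that resembles the 1C enzymes, and its gene lies on chromosome 1, away from the other members. Its probes carried an older name, 4921521F21Rik, and were given the current symbol through the RefSeq tables. On the brightest probe (A_52_P135990, chr1:65264409-65264468), signals were 255, 57.8, 544 and 34.3 in control replicates 1 to 4. The corresponding signals were 3916, 4691, 1094 and 795 in Gen replicates 1 to 4. Every Gen array lay above every control array, although the lowest Gen signal was less than 1.5 times the highest control signal. Mean log2 signals were 7.01 ± 1.85 (SD, n = 4) in controls and 10.97 ± 1.29 (SD, n = 4) in Gen-treated mice, a difference of 3.96 (SE, 0.98; 95% interval, 1.71 to 6.20). Leaving out each array in turn gave differences between 3.32 and 4.65.

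The other 2 probes of Akr1cl gave the same picture. On A_51_P350105 (chr1:65255432-65255491), signals were 313, 76.3, 302 and 54.5 in the controls and 2940, 4399, 1220 and 628 in the Gen-treated mice, a log2 difference of 3.66 (SE, 0.79; 95% interval, 1.83 to 5.48). Controls 1 and 3 were again the higher of their group, and Gen 1 and Gen 2 the higher of theirs. The third probe, A_52_P389965 (chr1:65272347-65272406), exceeded background on all 4 Gen arrays and on 0 of 4 control arrays. Its Gen signals were 687, 467, 185 and 81.9, which made it at least 6.62-fold higher in Gen-treated mice (the Gen mean set against, per control array, the higher of its own signal and the lowest signal called well above background). Its measured group means, 16.6 in controls and 264 in Gen-treated mice, are farther apart than that bound. With normexp background correction the bound was 3.19-fold. Deviations of the 3 probes from their group means correlated at 0.96 to 0.97 over the 8 arrays.

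Markers of ovarian tissue moved with Akr1cl. Of 10 genes listed for ovarian granulosa and luteal cells, 9 had a difference above 0 and 5 passed the limma test higher in Gen-treated mice, namely Cyp11a1, Hsd3b1, Lhcgr, Inha and Prss35, with a list median of 2.17 on the log2 scale. Over all 41173 probes the median was -0.06, and 2.17% passed higher. The summed signal of this list was 13021 to 39968 on the control arrays and 42468 to 168160 on the Gen arrays, so the groups did not overlap. All 4 Gen arrays lay above all 4 control arrays for 4.51% of all single probes. Foxl2 and Nr5a1, which define the granulosa lineage and steroid-producing cells, were well above background on the arrays of both groups, with log2 differences of 0.02 and -0.17. Lhcgr, the receptor for luteinizing hormone, was above background on 0 control arrays and on 4 Gen arrays. Its groups overlapped, since its signal was 40.7 on control 3 and 34.1 on Gen 3. The lowest signals called well above background on those arrays were 65.9 and 17.4.

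Cyp11a1, the side-chain cleavage enzyme that opens steroid synthesis, had signals of 238, 354, 3903 and 271 in the controls and 23785, 21029, 4444 and 8710 in the Gen-treated mice (log2 difference, 4.43; SE, 0.96; adjusted p = 0.0236 by limma). Hsd3b1, which makes progesterone from pregnenolone, had 2445, 1283, 18615 and 900 in the controls and 88719, 93445, 21861 and 31371 in the Gen-treated mice (log2 difference, 4.18; SE, 0.96; adjusted p = 0.0246 by limma). Control 3 was the highest control for both enzymes and for Akr1cl on its brightest probe, and Gen 1 and Gen 2 were the highest Gen arrays for all 3 genes. Of the markers of all cell types 7 genes passed (16.2% of all probes did), among them Ttr, lower and below background on every array. The count fell to 0 when control 1, Gen 1, Gen 2 or Gen 3 was left out. Without these arrays in turn, Cyp11a1 had differences of 4.03, 4.10, 4.16 and 4.90.

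Oocyte markers did not pass the test, and 4 of the 5 overlapped between groups. All 5 (Zp3, Gdf9, Bmp15, Ooep and Nlrp5) had a difference above 0, with a list median of 2.83, and 0 passed the adjusted test in limma, although 4 had an unadjusted p under 0.05. Their summed signal was 388 to 4442 on the control arrays and 4503 to 27484 on the Gen arrays. Ooep, an oocyte maternal-effect gene, had signals of 391, 31.0, 334 and 10.2 in the controls and 740, 2542, 558 and 361 in the Gen-treated mice (log2 difference, 3.29; SE, 1.24; adjusted p = 0.122 by limma). Controls 1 and 3 were high and controls 2 and 4 low for Ooep, as they were for Akr1cl, and Gen 2 was the highest array for both.

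Within groups, the mean of the oocyte list deviated with the brightest Akr1cl probe (r = 0.923, rho = 0.881, 8 arrays), as did that of the ovarian list (r = 0.831, rho = 0.714, 8 arrays). The corresponding values of r were 0.583 for cumulus cells, -0.429 for oviduct epithelium and 0.363 for smooth muscle. Other members deviated with these lists too: Akr1c14 had r = 0.726 with the oocyte list and 0.908 with the cumulus list, and Akr1c18 had 0.734 and 0.794. These arrays share their libraries and scaling, and the correlations are descriptions. Cumulus markers (Has2, Tnfaip6, Ptx3 and Areg) were well above background on all arrays, had a list median of 0.08, and 0 of 4 passed in limma, also at an unadjusted p under 0.05. The part of ovarian or oocyte RNA in the Akr1cl difference was not tested, and in whole oviducts more cells of a type and more RNA per cell cannot be told apart.

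Markers of other cells were counted in the same way, beside 2.17% of all probes called higher and 14.0% called lower. Of 4 leukocyte markers 1 was higher, Ptprc, the common leukocyte antigen (log2 difference, 0.72; SE, 0.19; adjusted p = 0.0367 by limma). Of 5 hepatocyte markers 1 was lower, Ttr, which was below background on every array, and 3 had an unadjusted p under 0.05. These included Fgb, a fibrinogen chain, which was above background on 0 control and 4 Gen arrays and at least 2.57-fold higher in Gen-treated mice (adjusted p = 0.120 by limma). Apoa1, an apolipoprotein, was above background on 0 control and 3 Gen arrays (adjusted p = 0.121 by limma), with no fold given. Of the remaining lists, 0 of 5 smooth muscle, 0 of 6 stratified squamous and 0 of 4 adipocyte markers passed in limma (0, 2 and 0 at an unadjusted p under 0.05).

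**Figure D2:**
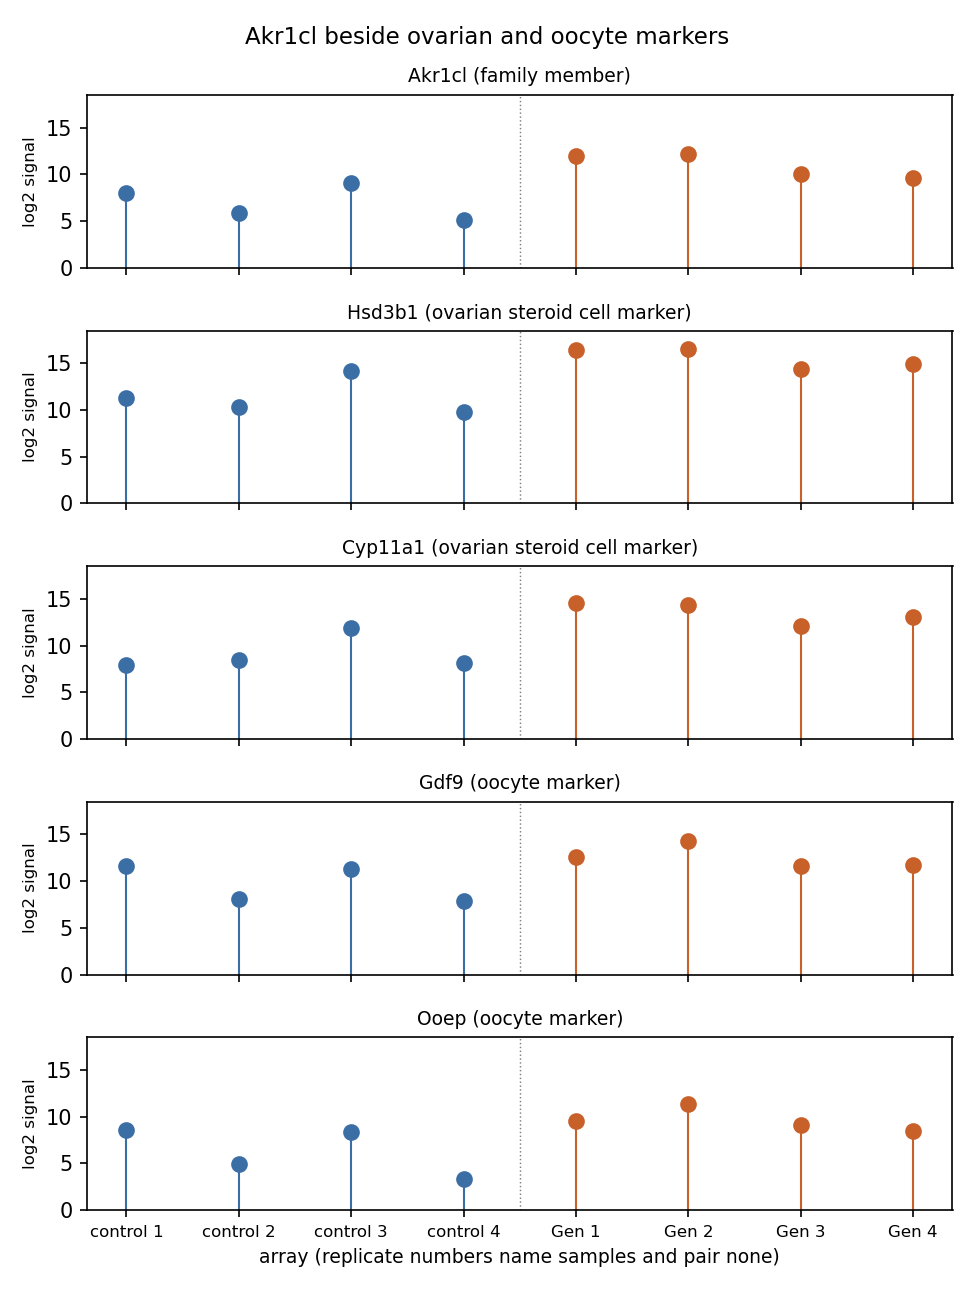
Scaled log2 signal (y axis, from 0) on each of the 8 arrays (x axis) for Akr1cl on its brightest probe, the ovarian markers Hsd3b1 and Cyp11a1, and the oocyte markers Gdf9 and Ooep. All 5 are higher on the Gen arrays as a group, Gen 1 and Gen 2 stand highest for Akr1cl and both ovarian markers, and controls 2 and 4 are the lowest for Akr1cl and both oocyte markers.

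The promoter of Akr1cl is shown because this was the member whose transcript differed. The window holds the 250 bases before the RefSeq start, chr1:65032760-65033009 on the minus strand of GRCm38.p6, and capitals mark matches to the motifs searched.
Akr1cl: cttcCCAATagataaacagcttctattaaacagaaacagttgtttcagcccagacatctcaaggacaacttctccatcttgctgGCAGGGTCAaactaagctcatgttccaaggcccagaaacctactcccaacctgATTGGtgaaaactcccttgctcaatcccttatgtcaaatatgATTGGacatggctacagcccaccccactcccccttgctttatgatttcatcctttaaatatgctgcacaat
The motifs were TATAAA (the core of the TATA box), CCAAT (bound by the factor NF-Y), AAGGTCA (the half-site of NR5A1 and related nuclear receptors), TGACNNNGC (antioxidant response), TTCNNNGAA (STAT) and AGAACA (steroid receptor half-site), each searched on both strands. Akr1cl had 3 matches to CCAAT, starting 246, 113 and 71 bases before the start, and 1 to TGACNNNGC at 166 bases. CCAAT was found in 33.8% and TGACNNNGC in 10.2% of the 32851 windows of this length, and in 4 and 1 of the 8 family windows. AAGGTCA (4.08% of windows) and AGAACA (16.1%) were in none of the 8 family windows, TATAAA (12.4%) was in 1, that of Akr1c6, and TTCNNNGAA (7.02%) in 1, that of Akr1c19. A match is only a run of letters. Akr1c20 had no promoter in the tables used.

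Akr1c18, the progesterone-inactivating member, did not separate the groups. Its probe (A_51_P256170, chr13:4019629-4021004, an interval longer than the probe) gave signals of 135, 82.3, 81.0 and 39.8 in the controls and 41.1, 238, 35.01 and 35.8 in the Gen-treated mice. Gen 2 was the highest of all 8 arrays and the other three Gen arrays lay close to control 4, the lowest control. The log2 difference was -0.39 (SE, 0.66) with a 95% interval of -1.92 to 1.14, which leaves room for a change of more than 2-fold in either direction. Without Gen 2 the difference was -1.06.

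Regulators of Akr1c18 were read beside it. Prlr, the prolactin receptor, whose signal holds Akr1c18 down in the corpus luteum, was higher in Gen-treated mice, with signals of 1046, 570, 1062 and 648 in the controls and 3555, 3582, 1565 and 2467 in the Gen-treated mice (log2 difference, 1.73; SE, 0.33; adjusted p = 0.0236 by limma). The groups did not overlap. Ptgfr, the prostaglandin F receptor through which Akr1c18 is induced, had a log2 difference of 1.24 (SE, 0.46; adjusted p = 0.121 by limma). Of 12 such regulators, 1 passed higher and 1 lower (2.17% and 14.0% of all probes), and the list median was 0.13. The lower gene, Nr4a3, was below background on every array, and 63.6% of such probes passed lower. Jak2, Stat5a and Stat5b, which carry the prolactin signal, had log2 differences of -0.25, -0.25 and 0.17.

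Akr1c14, the A ring reductase, had signals of 7477, 3210, 4376 and 2955 in the controls and 3701, 7653, 6288 and 5498 in the Gen-treated mice (A_51_P284177, chr13:3974319-3974378). Control 1 was nearly as high as the highest Gen array, and Gen 1 was lower than control 1 and control 3, so the groups overlapped. The log2 difference was 0.41 (SE, 0.34; 95% interval, -0.36 to 1.19).

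Akr1c21 and Akr1c6 lay near the detection limit. Akr1c21 (A_51_P208472, chr13:4468367-4470901) had signals of 14.5, 17.6, 15.7 and 16.8 in the controls and 36.7, 52.1, 29.6 and 24.3 in the Gen-treated mice, and Akr1c6 (A_51_P189082, chr13:4341660-4341719) had 9.07, 7.77, 14.5 and 14.8 in the controls and 31.2, 19.5, 20.3 and 16.7 in the Gen-treated mice. Every Gen array lay above every control array for both. Each was well above background on 3 Gen arrays and on 0 control arrays, and the Gen signals lay within or below the range of the limits on the control arrays, so no fold is given for either.

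Akr1c12 and Akr1c13 had similar signals on all 8 arrays. Akr1c12 (A_51_P242859, chr13:4157321-4157380) had signals of 2788, 2336, 2095 and 2404 in the controls and 2593, 2378, 2252 and 2187 in the Gen-treated mice. Akr1c13 (A_52_P346037, chr13:4087761-4089711) had 11140, 9942, 8799 and 10964 in the controls and 8732, 8878, 10856 and 9158 in the Gen-treated mice. The groups overlapped for both. The log2 differences were -0.03 (SE, 0.13; 95% interval, -0.32 to 0.26) and -0.12 (SE, 0.13; 95% interval, -0.41 to 0.18), so a change of 1.5-fold lay outside both intervals. Without scaling between arrays both differences turned positive, at 0.21 and 0.12.

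The pair also shares most of the sequence in front of its genes. Over the 250 bases before the start, Akr1c12 (chr13:4279400-4279649, minus strand, GRCm38.p6) and Akr1c13 (chr13:4190937-4191186, plus strand) matched at 235 of 254 aligned positions (92.5%), 8 of which were gaps in 1 sequence. The other 27 pairs among the 8 family promoters with a sequence matched at 43.7% to 59.0%. In the lines below the capitals mark the bases that differ or have no partner.
Akr1c12: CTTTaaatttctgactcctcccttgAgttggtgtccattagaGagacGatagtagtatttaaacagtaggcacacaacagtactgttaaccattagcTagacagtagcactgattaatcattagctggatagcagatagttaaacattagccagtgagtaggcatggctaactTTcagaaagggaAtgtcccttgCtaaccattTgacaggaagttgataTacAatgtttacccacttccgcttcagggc
Akr1c13: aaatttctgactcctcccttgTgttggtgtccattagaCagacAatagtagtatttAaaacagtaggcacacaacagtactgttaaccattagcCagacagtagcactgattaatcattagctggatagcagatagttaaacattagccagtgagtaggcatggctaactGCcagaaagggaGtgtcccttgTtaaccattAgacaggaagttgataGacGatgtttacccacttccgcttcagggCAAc
Neither window held any of the 6 motifs. Deviations of the Akr1c12 and Akr1c13 probes from their group means correlated at 0.35 over the 8 arrays. Nothing is read from this value, because the SDs within groups were only 0.11 to 0.17 on the log2 scale. The Akr1c13 probe may also hold both transcripts.

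Akr1c19 was read by 2 probes that went opposite ways. On the brighter (A_51_P180213, chr13:4123357-4123416), signals were 8121, 7381, 7360 and 7780 in the controls and 14978, 16592, 9188 and 6795 in the Gen-treated mice, a log2 difference of 0.54 (SE, 0.28; 95% interval, -0.09 to 1.18). The controls were tightly grouped (SD, 0.07 on the log2 scale) and the Gen-treated mice were not (SD, 0.61), with Gen 4 below all 4 controls. On the dimmer (A_51_P111335, chr13:4132624-4132683), signals were 931, 1535, 761 and 1551 in the controls and 887, 679, 1451 and 765 in the Gen-treated mice, a log2 difference of -0.33 (SE, 0.32; 95% interval, -1.07 to 0.40). Deviations of the 2 probes correlated at -0.21, so no direction is given for Akr1c19.

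Akr1c20 was not well above background on any of the 8 arrays with either probe. Its signals were 8.46, 22.3, 13.9 and 6.07 in the controls and 3.07, 2.89, 3.48 and 4.43 in the Gen-treated mice on A_51_P276802 (chr13:4392110-4392169). They were 9.35, 7.74, 15.0 and 6.58 in the controls and 9.02, 8.87, 4.73 and 5.57 in the Gen-treated mice on A_51_P382764 (chr13:4371680-4371739). The first of these probes passed the adjusted threshold as lower, and so did 63.6% of the 7855 probes that failed the background criterion on every array. Both groups are therefore given only as below background.

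**Figure D3:**
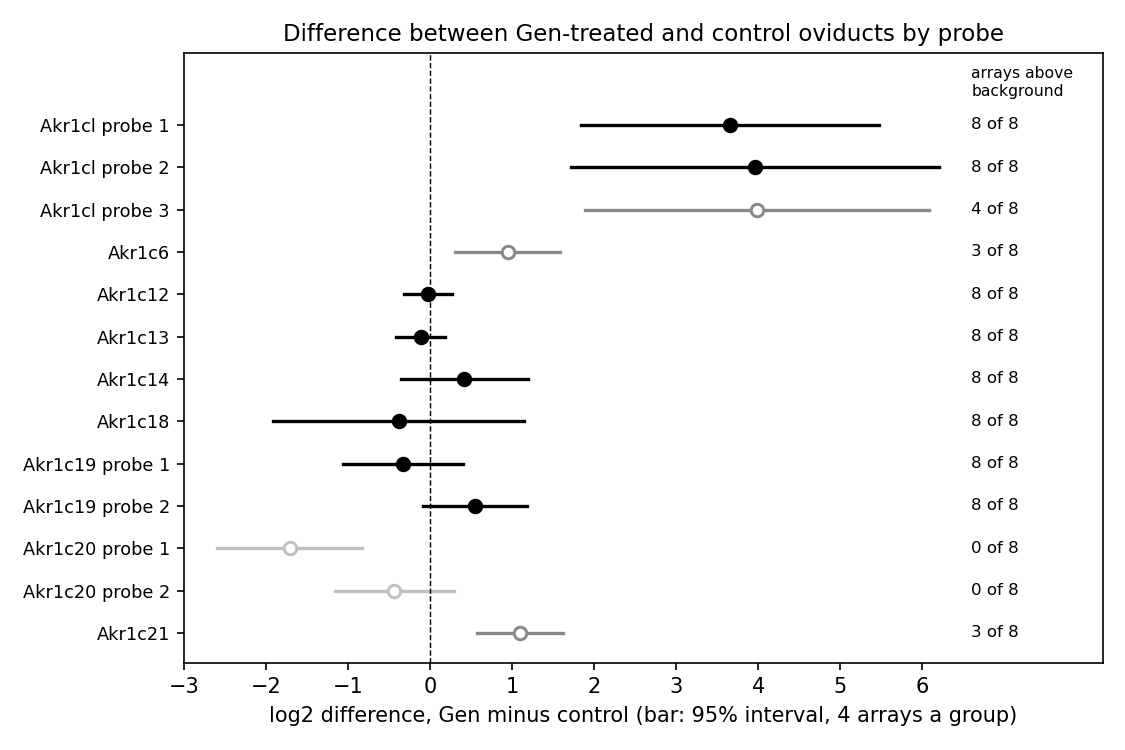
Log2 difference between Gen-treated and control oviducts (x axis, Gen minus control) for each family probe, with the 95% interval from limma and, at the right, the number of arrays of 8 on which the probe was well above background. The 2 Akr1cl probes detected on all arrays lie at 3.66 and 3.96, and the intervals of Akr1c12, Akr1c13, Akr1c14, Akr1c18 and Akr1c19 include 0. Open points mark probes below background on some or all arrays, for which the plotted differences are not measured folds.

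The other 8 members form a cluster on chromosome 13. Detection depends on the probe as well as on the transcript, so it is given here per probe and in order of position. From the Akr1c14 probe onward came Akr1c18, Akr1c13, Akr1c19 and Akr1c12, and these 5 genes at one end were well above background on all 8 arrays. Next came probes for 2 unnamed transcripts (AK085256 and AK085452, well above background on no array), then Akr1c6, Akr1c20 and Akr1c21, none of which was above background on any control array. Akr1e1, read by the next probes beyond Akr1c21 and a reductase of another subfamily, was well above background on all 8 arrays on its brighter probe, with a log2 difference of 0.47 (SE, 0.53; adjusted p = 0.614 by limma), but on 0 control and 3 Gen arrays on its other probe.

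**Figure D4:**
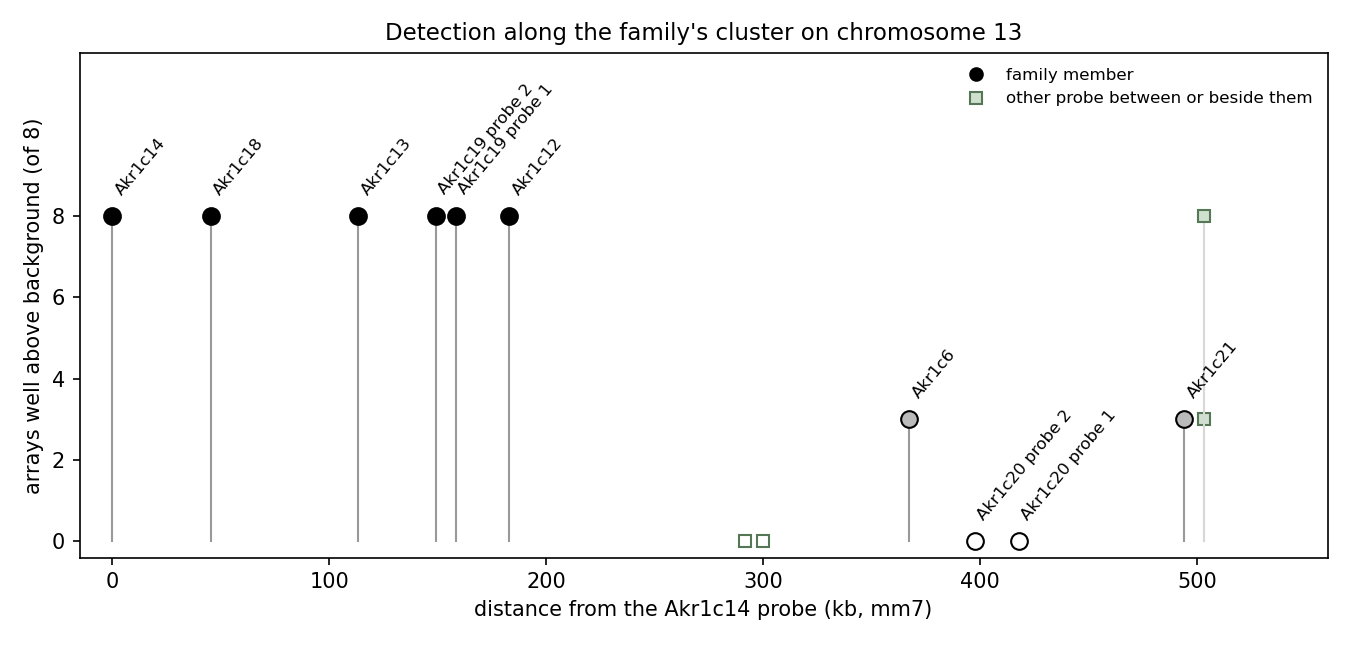
Number of arrays of 8 on which each probe was well above background (y axis) against its distance in kb from the Akr1c14 probe (x axis, mm7) along chromosome 13. Circles are family probes and squares the other probes between or beside them. Akr1c14, Akr1c18, Akr1c13, Akr1c19 and Akr1c12 stand at 8, and Akr1c6, Akr1c20 and Akr1c21 at 3, 0 and 3.

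Several enzymes that supply steroids to this family were higher in Gen-treated mice. Of 11 steroid synthesis genes with a probe, 7 were higher by the adjusted limma test (2.17% of all probes were) and 0 lower, with a list median of 1.37. These 7 include Cyp19a1 and Cyp21a1, which were above background on 0 control arrays and on 3 and 4 Gen arrays. Cyp19a1 was at least 1.77-fold higher in Gen-treated mice, and no fold is given for Cyp21a1. Cyp11a1, Hsd3b1, Scarb1 and Star, the cholesterol transporter of the mitochondrion, are also on the ovarian list. Star had a log2 difference of 1.80 (SE, 0.64, adjusted p = 0.103 by limma). Of 17 other steroid dehydrogenases and reductases, 2 were higher and 1 lower, with a median of 0.03, beside 2.17% and 14.0% of all probes. The lower gene, Srd5a2, was below background on every array. Hsd17b1, which makes estradiol from estrone in granulosa cells, was among the higher ones (log2 difference, 2.45; SE, 0.59; adjusted p = 0.0259 by limma). The other, Rdh16, was above background on 0 control and 3 Gen arrays and was at least 1.61-fold higher in Gen-treated mice. Its groups overlapped, with signals of 11.8 on Gen 1 and 13.8 on control 3. Of 6 genes of steroid conjugation and hydroxylation, 0 passed in limma, also at an unadjusted p under 0.05, and their median was 0.01.

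Of 11 steroid receptors, 1 was higher and 2 were lower, with a median of -0.17, beside 2.17% and 14.0% of all probes. The 2 lower genes were well above background on all 8 arrays, and 4.37% of such probes passed in either direction. The progesterone receptor Pgr had signals of 385, 414, 384 and 324 in the controls and 172, 252, 282 and 274 in the Gen-treated mice (log2 difference, -0.64; SE, 0.18; adjusted p = 0.0460 by limma). Paqr5, a membrane progestin receptor, was lower too (log2 difference, -0.74; SE, 0.19; adjusted p = 0.0301 by limma). The receptor that was higher, Esr2, the estrogen receptor of granulosa cells, exceeded background on 0 control arrays and was at least 3.16-fold higher in Gen-treated mice (adjusted p = 0.0286 by limma).

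Prostaglandins are the other substrates of the family. Of 10 prostaglandin enzymes 2 were lower and 0 higher, with a median of -0.20, beside 14.0% of all probes called lower. Both were well above background on all 8 arrays, and 4.37% of such probes passed in either direction. Ptgds, a prostaglandin D synthase, had signals of 2674, 3511, 3752 and 3274 in the controls and 2028, 1837, 1597 and 1767 in the Gen-treated mice (log2 difference, -0.86; SE, 0.14; adjusted p = 0.0236 by limma). Pla2g4a, the phospholipase that frees arachidonic acid, had a log2 difference of -0.59 (SE, 0.16; adjusted p = 0.0461 by limma).

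Relatives outside the 1C branch and a common regulatory program were read for comparison. Of 11 aldo-keto reductases outside 1C, 0 were higher and 1 was lower, with a list median of 0.21, beside 2.17% and 14.0% of all probes. The lower gene, Akr1d1, was well above background on control 4 only, where its spot was left out as an outlier. The call rests on control signals of 7.99, 6.69 and 13.2 and Gen signals of 2.96, 2.93, 3.46 and 5.05. All of these were below background. Of 11 targets of Nrf2, the oxidative stress factor that can induce aldo-keto reductases, 1 was higher (2.17% of all probes) and 0 lower, with a median of -0.17. That gene was Me1, malic enzyme, a source of NADPH (log2 difference, 1.95; SE, 0.37; adjusted p = 0.0236 by limma), with signals of 1563, 1125, 2180 and 1110 in the controls and 8850, 7515, 3166 and 4492 in the Gen-treated mice. Gen 1 and Gen 2 were the highest arrays for Me1, as for Akr1cl. Nqo1, the first gene of the list, went the other way, with a log2 difference of -0.67 (SE, 0.21, adjusted p = 0.0647 by limma). Its signals were 2230, 2287, 2607 and 2438 in the controls and 999, 1500, 1834 and 1852 in the Gen-treated mice. Of the 11 targets, 5 had a difference above 0. Over all the lists other than those of cell types, the calls fell from 19 genes to 0 when control 1, Gen 1, Gen 2 or Gen 3 was left out.

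The genes most like each detected member were found from deviations within groups over the 8 arrays, among 16800 genes well above background on every array. Closest to Akr1cl were Mgarp (r = 0.97), Acsbg1 (r = 0.97) and Rab31 (r = 0.96). Mgarp, a mitochondrial protein of steroid-producing cells, had signals of 731, 171, 2029 and 170 in the controls and 14222, 14052, 4024 and 5009 in the Gen-treated mice. Akr1c18 was closest to Ptx3 (r = 0.98), a cumulus matrix gene with signals of 145, 143, 124 and 77.7 in the controls and 104, 289, 103 and 97.6 in the Gen-treated mice. Gen 2 was the highest array for Ptx3 as well as for Akr1c18.

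Other members had other neighbours. Akr1c12 was closest to Dars (r = 0.99), Akr1c13 to Mapk10 (r = 0.96), Akr1c14 to Calm3 among named genes (r = 0.97) and Akr1c19 on its brighter probe to Pola2 (r = 0.97). Between 9 and 71 genes exceeded r = 0.9 with a given member, and with 8 arrays such values arise for many genes.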

How the data were processed

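Oviduct RNA of 4 control and 4 Gen-treated mice was read on 1-colour arrays, and groups and replicate numbers came from the sample labels. The deposited values are from Agilent Feature Extraction 9.5, and its processed signal is an intensity on a linear scale. Per the file headers, spatial and multiplicative detrending and surrogates for low signals were switched on, and the 75th percentile of the arrays still ranged from 1908 to 3772. The study also used Rosetta Resolver, and its output was not used here. Control spots (1639) and outlier spots were left out, the deposited intensities were taken to log2, spots of a probe were averaged, and each array was set to the mean of the 75th percentiles. Groups were compared with limma 3.58.1 in R 4.3.3 (package data.table, version 1.17.8), with lmFit and eBayes and the Benjamini-Hochberg method over 41173 probes, and intervals are at the 95% level. The steps were tested on simulated data. Sequences were handled with Python 3.11.15 and Biopython 1.88, and plots drawn with matplotlib 3.10.9.

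Symbols came from RefSeq tables of GRCm38.p6, by accession for 10 family probes and by name or synonym for 3. Promoters are RefSeq sequences of that build, and probe positions are those of the design on mm7. No genome was used, so exons are not given. The members and the gene lists were chosen with earlier results of these data known. Every probe of every member is named. Other genes were to be up to 4 of each list (the lowest p and the first), and the 3 (5 for Akr1c18) most like each detected member. Not all of these are named, and for members other than Akr1cl only the closest named gene is given. The brightest probe stood for a gene in the lists. A probe below background throughout 1 group is given as a bound or with no fold. Some further genes of the lists (Inha, Lhcgr, Prss35, Scarb1, Cyp21a1, Jak2, Stat5a, Stat5b, Foxl2, Nr5a1, AK085256 and AK085452) were named after their values were seen. Each array in turn was left out, and the alternatives to scaling were none and quantile normalization. The background was also corrected by normexp with an offset of 50, dim probes were dropped or raised to a floor, and outlier spots were retained. Other tests were limma with a trend and robust variance, the methods' t-test, a replicate block and the study's filters, and probes of a gene were also averaged. With 4 arrays per group, their number sets the precision.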

Additional observations from a re-analysis of the deposited data

Results flagged for a closer look

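Akr1c18 in Gen replicate 2 stood apart from the other three Gen arrays: the gap to the nearest of them was 0.916 of the range of the group, above Dixon's critical value for 4 samples at the 95% level. Its signal was 238, where the other Gen signals were 35.01 to 41.1. Of 26 such tests, 1 for each family probe in each group, 1 exceeded the critical value, and chance alone flags about 1 in 20.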

How the results depend on the processing

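The log2 differences of the Akr1cl probes stayed above 0 under all alternatives, at 2.99 to 4.20 for the brightest probe, and the bound of the third was 3.19- to 9.79-fold, but the calls did not hold. The main count of 5 family probes became 0 with quantile normalization, normexp, the filter on dim probes, the floor, the methods' t-test and the replicate block, 3 with the study's filters, and 0 to 6 with each array left out. The 19 genes called on the lists other than those of cell types became 1, 3, 3, 0, 0, 0 and 9 under those 7 settings. With each array left out they became 0 to 14. Without control 1, Gen 1, Gen 2 or Gen 3, different genes shared the same adjusted p. Me1 and Mgarp, for example, both had 0.0591, 0.0633, 0.0675 and 0.0603 by limma in those fits. The cause of the lost calls was not tested. Reversed were Akr1c12 (0.21) and Akr1c13 (0.12) without scaling, Akr1c12 without control 1 (0.045) or Gen 4 (0.0061), in a range of -0.092 to 0.045 over the arrays left out, Akr1c18 with the floor (0.048), the second Akr1c20 probe with quantile normalization (0.30), and Akr1c21 with normexp (-0.033). With the floor, Akr1c6, Akr1c20 and Akr1c21 had no difference left, since both groups lay under it. The replicate numbers did not pair the samples: same-numbered arrays deviated together at -0.08, 0.11, -0.02 and -0.18, and 0 of 4 controls lay closest to its own number. With the numbers as a block, 0 family probes passed. Signals near background limit Akr1c6, Akr1c20, Akr1c21 and the controls of the third Akr1cl probe. Akr1c18 was also dim on control 4 (39.8), Gen 1, Gen 3 and Gen 4 (35.01 to 41.1). So was the brightest Akr1cl probe on controls 2 and 4 (57.8 and 34.3), where the limits were 33.6 and 28.5. With normexp the difference of that probe was 2.99. The 4 arrays per group on separate slides limit every member.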
